A study of Homo sapiens with 54 samples.

Results

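The proteins of the cytosolic ribosome were followed at the mRNA level in NCI-H460 cells, a human lung large cell carcinoma line, treated with radiation, cisplatin, nicotine and cigarette smoke extract. Genes were taken where a row of the deposited array table carried exactly 1 gene symbol of the form RPL or RPS followed by a number, RPLP0 to RPLP2 or RPSA, without RPS27L, and the row with the highest mean was kept for each symbol. This gave 64 genes of the 18417 genes measured, 21 of the small subunit and 43 of the large subunit. Of these, 57 encode standard ribosomal proteins and 7 are paralogs of one (RPL3L, RPL7L1, RPL10L, RPL22L1, RPL26L1, RPL36AL and RPL39L). For 11 further symbols, among them RPL13A, RPL36A, RPL39 and RPS18, the rows carried several symbols, and they were not analysed here.

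Cells grown in medium without serum were given cigarette smoke extract at 5 uM nicotine equivalent, nicotine at 5 uM, or neither, and 2 h later radiation at 6 Gy, cisplatin at 1 uM, or neither. Harvest followed after a further 24 h or 2 h, which makes 9 treatments at 2 times, 18 groups of 3 arrays and 54 arrays. The treatments were radiation, radiation after nicotine, radiation after smoke extract, cisplatin, cisplatin after nicotine, cisplatin after smoke extract, smoke extract, nicotine and no treatment. All come from a single cell line, and the labels call the 3 samples of a group biological replicates. The keratins KRT8, KRT18 and KRT19 lay at or above the 98.8th percentile of all genes, while the epithelial genes EPCAM and CDH1 had mean log2 values of 5.28 and 5.07 and the mesenchymal filament gene VIM 11.5. The leukocyte gene PTPRC (3.40), the endothelial gene PECAM1 (4.88) and the stromal gene DCN (3.12) were low. Other markers on the same lists were higher. The collagens COL1A1 and COL3A1 were at 7.56 and 7.22, CD14 at 6.44 and the macrophage-associated CD68 at 9.41.

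A cytosolic ribosome is assembled from ribosomal RNA and a large set of proteins, most of them present once per particle, in the nucleolus and then the cytoplasm. Many of the mRNAs begin with a C followed by a run of C and T bases, the 5′ terminal oligopyrimidine (TOP) motif, through which their translation is tied to growth signals. RPL5 and RPL11, when not built into ribosomes, bind MDM2, a ubiquitin ligase. Several ribosomal protein genes also carry small nucleolar RNAs in their introns, which guide modification of ribosomal RNA.

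The start sites of members with different patterns at 24 h are shown first, because the TOP motif is a feature of most of these genes. Each line holds the 10 bases before and the 20 bases from the annotated start in RefSeq (GRCh38.p14), with the unbroken run of C and T from the start base in capitals. The first 10 genes were lower in treated than in untreated cells at 24 h in several comparisons below. RPL7A was higher in the row used, and RPL14 and RPS23 were called in none of the radiation, cisplatin and smoke extract comparisons at 24 h.
RPS13 (chr11:17077648-17077677, minus strand): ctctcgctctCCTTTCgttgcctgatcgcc
RPL36 (chr19:5690285-5690314, plus strand): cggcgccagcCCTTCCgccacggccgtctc
RPLP1 (chr15:69452808-69452837, plus strand): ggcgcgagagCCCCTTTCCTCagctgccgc
RPS25 (chr11:119018324-119018353, minus strand): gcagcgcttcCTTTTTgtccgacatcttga
RPL24 (chr3:101686699-101686728, minus strand): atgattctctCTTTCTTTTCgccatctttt
RPL38 (chr17:74203668-74203697, plus strand): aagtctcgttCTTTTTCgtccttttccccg
RPL35A (chr3:197950180-197950209, plus strand): gggcctcgtcCTTCTCTTaccgccatcttg
RPS28 (chr19:8321486-8321515, plus strand): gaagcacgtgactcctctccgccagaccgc
RPS15 (chr19:1438386-1438415, plus strand): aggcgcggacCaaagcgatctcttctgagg
RPL36AL (chr14:49620607-49620636, minus strand): tcttccctttCCTgttaggcgagagctgcg
RPL7A (chr9:133348208-133348237, plus strand): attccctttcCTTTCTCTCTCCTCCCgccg
RPL14 (chr3:40457329-40457358, plus strand): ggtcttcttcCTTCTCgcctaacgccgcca
RPS23 (chr5:82278335-82278364, minus strand): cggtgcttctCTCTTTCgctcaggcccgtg

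The promoter table matched 53 of the 64 members. Of these, 37 (69.8%) had at least 1 start at which a C was followed by at least 4 bases that were C or T, read on the gene's strand, against 1404 of 27305 genes (5.14%) in the whole table. The counts were compared with the direction of change as a description. After cisplatin at 24 h, 20 of the 37 members with such a start and 7 of the 16 without were called lower, with median log2 differences of -0.19 and -0.18. After smoke extract at 24 h the counts were 12 of 37 and 4 of 16, with medians of -0.11 and -0.06. After radiation they were 13 of 37 and 6 of 16, with medians of -0.12 and -0.20. Of all genes 3.22% were called lower after cisplatin, 15.7% after smoke extract and 16.6% after radiation. RPS28, RPS15 and RPL36AL, which fell in several comparisons, have annotated starts outside this pattern. RPL7A, higher in the row used, has the longest run shown.

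The deposited values are treated as log2 values, and a difference of 1 is then a doubling. The genes were among the brightest of the array. Mean values ran between 6.50 (RPL22) and 12.51 (RPL18), 56 of the 64 lay above 8.33, the upper quartile of all genes, and 6 lay below the median gene at 7.04. The brightest were RPL18, RPS2, RPL5, RPL10 and RPL23A. The dimmest were RPL10L, RPL39L, RPL22L1, RPL3L and RPL22. Rows differ in their probes, so their order need not be the order of the mRNA amounts.

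The mean over all 64 genes gave a first view of each array. At 24 h it lay between 10.21 and 10.71 with a median of 10.50, against 10.62 to 10.74 with a median of 10.68 at 2 h. At 24 h it was 10.37 ± 0.15 after radiation, 10.50 ± 0.02 after radiation and nicotine, and 10.46 ± 0.13 after radiation and smoke extract (SD, n = 3 each). It was 10.43 ± 0.20 after cisplatin, 10.44 ± 0.06 after cisplatin and nicotine, and 10.33 ± 0.07 after cisplatin and smoke extract. It was 10.45 ± 0.15 after smoke extract, 10.60 ± 0.07 after nicotine and 10.66 ± 0.05 in untreated cells. All 21 arrays of the 7 treatments that include radiation, cisplatin or smoke extract lay below every untreated array at 24 h, and the nicotine arrays overlapped both. The 9 groups at 2 h were within 10.66 to 10.72. In these bulk cultures, a change in the cells that remain and a change of mRNA per cell cannot be told apart.

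**Figure D1:**
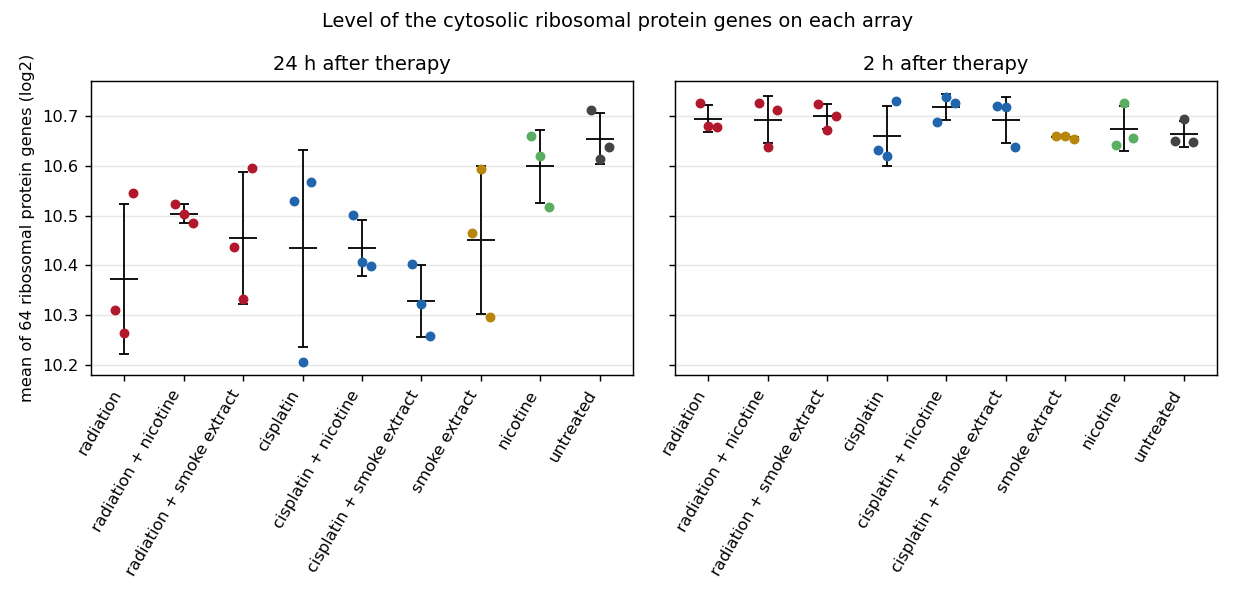
Mean log2 value of the 64 ribosomal protein genes on each array (points), with the group mean and SD (bars, n = 3), at 24 h (left) and 2 h (right). At 24 h untreated arrays averaged 10.66 and the lowest array, of cisplatin alone, reached 10.21, while all 2 h arrays lay between 10.62 and 10.74.

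The replicate arrays spread far more at 24 h than at 2 h, which touches every result below. The group SD of this mean reached 0.20 at 24 h, against at most 0.06 at 2 h. RPS28, a small-subunit protein, shows it on single arrays. At 24 h it had values of 12.43, 10.74 and 12.48 after cisplatin, 11.20, 11.21 and 12.47 after radiation, and 12.58, 12.56 and 12.59 in untreated cells. Cisplatin replicate 2 and radiation replicate 3 stood far from the other arrays of their groups in this gene. A single axis held 63.7% of the spread of the 64 genes among replicate arrays.

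Across all 18 groups, 50 of the 64 genes differed (limma F test, Benjamini-Hochberg adjusted p under 0.05), against 60.1% of all genes. None was called at 2 h. The effect of an agent was taken as the mean over the 3 states of the other factor, 9 arrays against 9. At 2 h, 0 of 64 genes passed for radiation (1.35% of all genes), cisplatin (0.0109%), smoke extract (9.28%) and nicotine (0%) in limma, and at an unadjusted p under 0.05 the counts were 0, 3, 2 and 0. Compared with untreated cells alone, each of the 8 treatments also had 0 called members at 2 h, with 0 to 2 at an unadjusted p under 0.05. Of all genes 4.7% were called there for cisplatin with smoke extract, 4.51% for radiation with smoke extract, 3.77% for smoke extract, 0.304% for radiation, 0.266% for radiation with nicotine, 0.00543% each for cisplatin and for cisplatin with nicotine, and 0% for nicotine. Smoke extract thus changed many genes at 2 h without a call among the ribosomal proteins, whose differences ran between -0.15 and 0.12.

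Radiation lowered a subset of the genes by 24 h. In the mean effect 23 members were called, 21 lower and 2 higher, against 32.5% of all genes called either way, 16.6% called lower and 15.9% called higher. The 23 calls are 35.9% of the members, close to the background, but the lower calls are 32.8% of the members. The median difference of the members was -0.11 and that of all genes 0.03. The fit pools the spread of both times, and with the 24 h arrays alone 15 were called (14 lower), against 26.9% of all genes. Leaving out single arrays gave 20 to 36 calls, with 36 without replicate 3 of radiation and smoke extract and 20 without nicotine replicate 1.

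Cisplatin acted in 1 direction. At 24 h 28 members were called and all 28 were lower, against 5.03% of all genes called either way and 3.22% called lower. The median difference of the members was -0.14, and 54 of the 64 differences were negative. With the 24 h arrays alone 7 members were called lower, against 1.35% of all genes. Leaving out single arrays gave 17 to 34 calls, with 17 without cisplatin replicate 2.

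After smoke extract at 24 h 23 members were called, 17 lower and 6 higher, against 27.7% of all genes either way, 15.7% lower and 11.9% higher. The lower calls are 26.6% of the members and the higher calls 9.38%, the higher share being below that of all genes. The median difference of the members was -0.06 and that of all genes 0.03. With the 24 h arrays alone 10 were called (7 lower, 3 higher), against 20.1% of all genes. Leaving out single arrays gave 13 calls without radiation replicate 3 and 32 without cisplatin replicate 2. Nicotine had 2 calls, both higher (RPS27 and RPS20), against 5.21% of all genes either way and 0.782% higher, 0 with the 24 h arrays alone, and 1 to 10 when single arrays were left out, with 10 without replicate 1 of radiation and nicotine. The radiation and cisplatin effects share the 9 arrays without therapy, and the smoke extract and nicotine effects share the 9 without pretreatment.

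RPS13, a small-subunit protein, fell after radiation and after cisplatin. At 24 h its values were 10.87, 10.79 and 11.37 after radiation, 11.28, 10.79 and 11.34 after cisplatin, 11.34, 11.81 and 11.18 after smoke extract, 12.01, 11.88 and 11.81 after nicotine, and 12.07, 11.96 and 12.08 in untreated cells. All radiation, cisplatin and smoke extract arrays lay below the nicotine and untreated arrays. Its level was 0.491 of the untreated one after radiation (log2 difference -1.03 ± 0.15 SE, adjusted p = 5.73e-07) and 0.537 after cisplatin (-0.90 ± 0.15, adjusted p = 0.000163). The mean effects were -0.51 for radiation and -0.60 for cisplatin. That of smoke extract, -0.12, did not pass (adjusted p = 0.29), although smoke extract alone against untreated cells did (-0.59, adjusted p = 0.00349).

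RPL36, a large-subunit protein with small replicate spread, was lower after each of the 3 agents. At 24 h it had 10.20, 10.04 and 10.38 after radiation, 10.35, 10.03 and 10.37 after cisplatin, 10.22, 10.32 and 10.18 after smoke extract, 10.63, 10.58 and 10.32 after nicotine, and 10.73, 10.71 and 10.78 in untreated cells. No treated array reached an untreated one. The mean effects were -0.21, -0.26 and -0.17 for radiation, cisplatin and smoke extract (adjusted p = 0.000208, 0.000363 and 0.00456). RPL36 was also the 1 member called in the test of whether the response to therapy at 24 h depended on the pretreatment (F test for interaction, adjusted p = 0.0212). This is 1.56% of the members, close to the 1.22% of all genes, so the count is not read as a trait of the members. At an unadjusted p under 0.05 there were 20 such members. Of the pretreated groups only those with smoke extract are given here, although the test also covers nicotine. Cisplatin with smoke extract averaged 10.18 and radiation with smoke extract 10.28, while smoke extract alone averaged 10.24, and all 3 lay below the 10.74 of untreated cells. With the 24 h arrays alone the count was 0. Leaving out single arrays gave 0 without any 1 untreated array, smoke extract replicate 1 or radiation replicate 2, and 5, 11 and 12 without nicotine replicate 3, cisplatin replicate 2 and radiation replicate 3. It gave 2 without smoke extract replicate 2, radiation replicate 1, or replicate 1 of radiation with nicotine or of cisplatin with smoke extract.

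RPS24, RPL38, RPS15 and RPLP1 were the other 4 members called lower after all 3 agents. The share of all genes called lower after all 3 was not counted, so this count is not read as a trait of the members. RPLP1, an acidic protein of the ribosomal stalk, had 11.31 to 11.97 on the 9 cisplatin arrays (median 11.59), against 11.55 to 12.15 (median 12.08) on the 9 arrays without therapy, a difference of -0.32 (adjusted p = 0.000626). RPS15, a small-subunit protein, fell by 0.31 after both radiation and cisplatin (adjusted p = 5.3e-05 and 0.000834). RPS24, one of the genes mutated in Diamond-Blackfan anaemia, fell by 0.34 after radiation and 0.25 after cisplatin (adjusted p = 0.000303 and 0.0377). RPL38, a large-subunit protein, fell by 0.30 after cisplatin and 0.22 after smoke extract (adjusted p = 0.00343 and 0.00985). In each of these comparisons the 2 sets of 9 arrays overlapped.

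A larger set of members separated cells given radiation, cisplatin or smoke extract from untreated ones. The arrays of nicotine alone were left out of the count below. In RPL36, RPLP1, RPS25 and RPS28 they too lay below all untreated arrays. In the other genes counted as lower, such as RPL24, they overlapped the untreated arrays. In every gene counted as lower except RPS13, they also overlapped the 21 treated arrays. For 12 of the 64 genes (18.8%) all 21 arrays of the 7 treatments with radiation, cisplatin or smoke extract lay below all 3 untreated arrays at 24 h, while 2.38% of all genes did so. The 12 were RPS7, RPS13, RPS15, RPS21, RPS25, RPS28, RPL24, RPL35A, RPL36, RPL36AL, RPL38 and RPLP1. RPS25, a small-subunit protein used by some viral internal ribosome entry sites, had 10.45 to 11.51 on the 21 arrays (median 11.13), against 11.73 to 11.79 on the untreated arrays. RPL35A had 11.23 to 11.70 on the 21 arrays (median 11.50), against 11.75 to 11.85 on the untreated ones. RPL5 was the 1 member wholly above, as were 1.43% of all genes. These counts rest on the same 3 untreated arrays throughout.

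RPL5 and RPL7A were higher in the rows used, against most members. RPL5, a partner of the 5S ribosomal RNA, had 12.72, 12.67 and 12.45 after radiation, 12.48, 12.46 and 12.47 after cisplatin, 12.61, 12.64 and 12.59 after smoke extract, 12.31, 12.35 and 12.66 after nicotine, and 12.38, 12.27 and 12.22 in untreated cells at 24 h. The radiation, cisplatin and smoke extract arrays lay above the untreated ones, and the nicotine arrays overlapped both. The mean effects were 0.16 for radiation (adjusted p = 0.00176) and 0.15 for smoke extract (adjusted p = 0.00455), while 0.12 for cisplatin did not pass (adjusted p = 0.0804). RPL5 is carried by 3 rows, and with their mean in its place the effects were 0.085 for radiation and 0.09 for smoke extract (adjusted p = 0.0316 and 0.0261). The second row, with a mean value of 12.13, had 0.17 after radiation and 0.04 after smoke extract (adjusted p = 0.00127 and 0.496). The third row, with a mean value of 8.29, had -0.07 and 0.08 (adjusted p = 0.351 and 0.23), so the rise was not seen in every row. RPL7A, a large-subunit protein whose introns carry small nucleolar RNAs, rose by 0.17 after radiation and 0.22 after smoke extract (adjusted p = 0.0115 and 0.00143). It is carried by 1 row, so its rise could not be compared between rows. Which copy of a gene each row measures was not checked, so these rises are not assigned to the named genes alone. The radiation effect was lost with the 24 h arrays alone (adjusted p = 0.0586) and without replicate 3 of untreated cells or replicate 2 of radiation and nicotine (0.051 and 0.0561). RPL11, which binds MDM2 together with RPL5, did not share the rise: it fell by 0.31 after cisplatin and 0.26 after smoke extract (adjusted p = 0.00881 and 0.00733), and its radiation effect was -0.17 (adjusted p = 0.0791).

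Several genes with large falls also had the largest replicate spread. RPS28 had the highest SD among replicate arrays (0.37), followed by RPL34 (0.36), RPL22L1 (0.30), RPL24 (0.29) and RPL10 (0.23). RPS28 fell by 0.62 after cisplatin and 0.55 after smoke extract (adjusted p = 0.0122 and 0.00634), and the calls were lost with the 24 h arrays alone (adjusted p = 0.144 and 0.0571). Without cisplatin replicate 2 its cisplatin difference was -0.43 (adjusted p = 0.0602). RPL34, a large-subunit protein, had -0.55 after cisplatin (adjusted p = 0.0233, and 0.176 with the 24 h arrays alone), and it was lost in 6 of 18 fits that left out 1 array, with -0.42 and an adjusted p of 0.11 without cisplatin replicate 2. RPL24, a protein of the bridge between the subunits, had -0.39 after radiation and -0.51 after cisplatin (adjusted p = 0.0117 and 0.0093, and 0.07 and 0.114 with the 24 h arrays alone). Over the 64 members the replicate SD and the difference at 24 h had a Pearson correlation of -0.67 for radiation, -0.73 for cisplatin and -0.68 for smoke extract, a description of genes that share the same arrays.

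**Figure D2:**
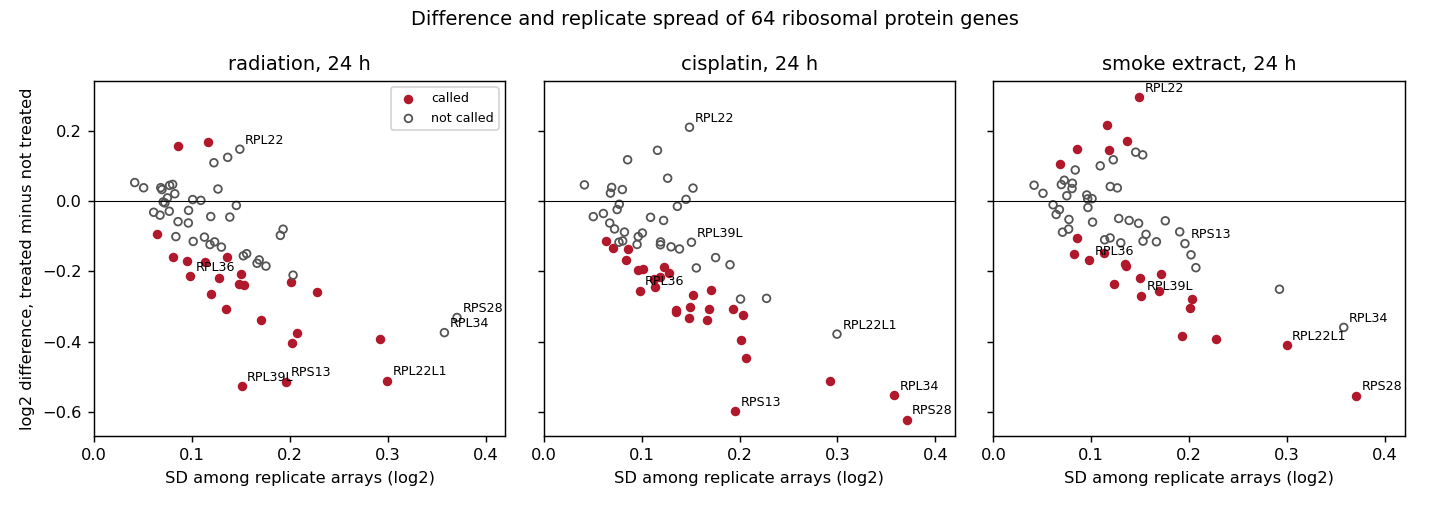
For each of the 64 genes, the SD among replicate arrays (horizontal, log2) against the mean log2 difference at 24 h (vertical, treated minus not treated) for radiation, cisplatin and smoke extract, with called genes filled. RPS28 (SD 0.37) and RPL34 (0.36) lie at the far right, and RPS13, RPL39L and RPL36 show differences with less spread.

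RPL10, placed late into the large subunit near its catalytic centre, fell by 0.39 after smoke extract and by 0.26 after radiation (adjusted p = 0.00177 and 0.0363). RPS19, the gene most often mutated in Diamond-Blackfan anaemia, fell by 0.39 after smoke extract and by 0.31 after cisplatin (adjusted p = 0.000373 and 0.0209), with -0.08 after radiation (adjusted p = 0.519). RPS25 fell by 0.37 after radiation and by 0.45 after cisplatin (adjusted p = 0.000751 and 0.00126). RPL13, a large-subunit protein, was the 1 member whose 9 cisplatin arrays (9.99 to 10.16) lay wholly below the 9 arrays without therapy (10.19 to 10.34), at -0.20 (adjusted p = 0.00584), as did 4 of all genes (0.0217%). Its radiation and smoke extract effects were -0.06 and 0.01. RPS6, the target of S6 kinase, had mean effects of -0.06 for radiation, -0.14 for cisplatin and -0.11 for smoke extract (adjusted p = 0.299, 0.0416 and 0.0455). RPLP2 of the stalk had a mean smoke extract effect of -0.15 (adjusted p = 0.0027).

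The 7 paralogs behaved apart from one another. In the rows used 5 of the 7 were called lower after radiation, 1 (RPL36AL) after cisplatin and 3 after smoke extract. The medians were -0.27, -0.12 and -0.15, and 16.6%, 3.22% and 15.7% of all genes were called lower. The counts for radiation and smoke extract include RPL26L1, whose rows disagreed, as given below. RPL39L, which in mammals is most abundant in testis, had 5.96, 5.78 and 6.04 after radiation with smoke extract, 6.19, 6.54 and 6.71 after radiation, 6.83, 6.91 and 6.78 after cisplatin, and 6.90, 6.94 and 6.95 in untreated cells at 24 h. The arrays with both radiation and smoke extract lay below all others. The radiation effect was -0.53 (adjusted p = 2.76e-08), the cisplatin effect -0.12 (adjusted p = 0.377), and the difference between radiation and cisplatin -0.41 (adjusted p = 7.07e-06). Adding smoke extract to radiation lowered RPL39L by a further 0.55 (adjusted p = 0.000942), the 1 member called in that comparison, against 8.23% of all genes either way and 5.68% lower. The mean level of RPL39L lay below that of the median gene, and its parent RPL39 was not analysed here.

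RPL22 and its paralog RPL22L1, whose transcript RPL22 protein is known to restrain, moved in opposite directions after smoke extract at 24 h. RPL22 had 6.97, 6.95 and 6.44 after smoke extract, 6.79, 7.00 and 6.82 after cisplatin with smoke extract, 6.92, 6.83 and 6.66 after radiation with smoke extract, and 6.32, 6.43 and 6.36 in untreated cells. All 9 smoke extract arrays lay above the untreated ones. Its smoke extract effect was 0.30 (adjusted p = 0.000904), and it differed from that at 2 h by 0.45 (adjusted p = 0.00134). RPL22L1 had 6.24, 6.32 and 5.88 after smoke extract, 5.65, 5.86 and 5.92 after cisplatin with smoke extract, 5.52, 5.67 and 6.50 after radiation, and 6.98, 6.75 and 6.55 in untreated cells. Its effects were -0.51 for radiation (adjusted p = 0.00149), -0.41 for smoke extract (adjusted p = 0.0143) and -0.38 for cisplatin (adjusted p = 0.0783). The smoke extract effect was lost with the 24 h arrays alone (adjusted p = 0.0636). Without radiation replicate 3 it was -0.31 (adjusted p = 0.0689). The mean levels of both genes lay below that of the median gene.

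RPL26L1, nearly identical in sequence to RPL26, fell in the row used by 0.23 after radiation and 0.30 after smoke extract (adjusted p = 0.0389 and 0.00747). With the 24 h arrays alone the smoke extract value had an adjusted p of 0.0554. A second, dimmer row of RPL26L1, with a mean value of 6.79, had 0.06 after radiation and -0.0005 after smoke extract (adjusted p = 0.57 and 0.997), and the mean of both rows gave -0.15 after smoke extract (adjusted p = 0.0392). Which row measures RPL26L1 itself was not checked, so the fall is not assigned to the gene. RPL26 itself had a difference of 0.17 after smoke extract (adjusted p = 0.0301, and 0.0708 with the 24 h arrays alone), 0.12 after radiation (adjusted p = 0.122) and -0.02 after cisplatin (adjusted p = 0.926). RPL36AL fell by 0.40 after radiation and 0.39 after cisplatin (adjusted p = 0.000241 and 0.00406). RPL7L1, a paralog of RPL7, fell by 0.27 after radiation (adjusted p = 0.000124), and RPL7 was not called. RPL3, RPL3L and RPL10L were called for none of the 3 agents. RPL23, which also binds MDM2, had -0.15, -0.19 and -0.10 for radiation, cisplatin and smoke extract (adjusted p = 0.0996, 0.107 and 0.319). RPLP0, RPSA and RPS27A were not among the members.

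**Figure D3:**
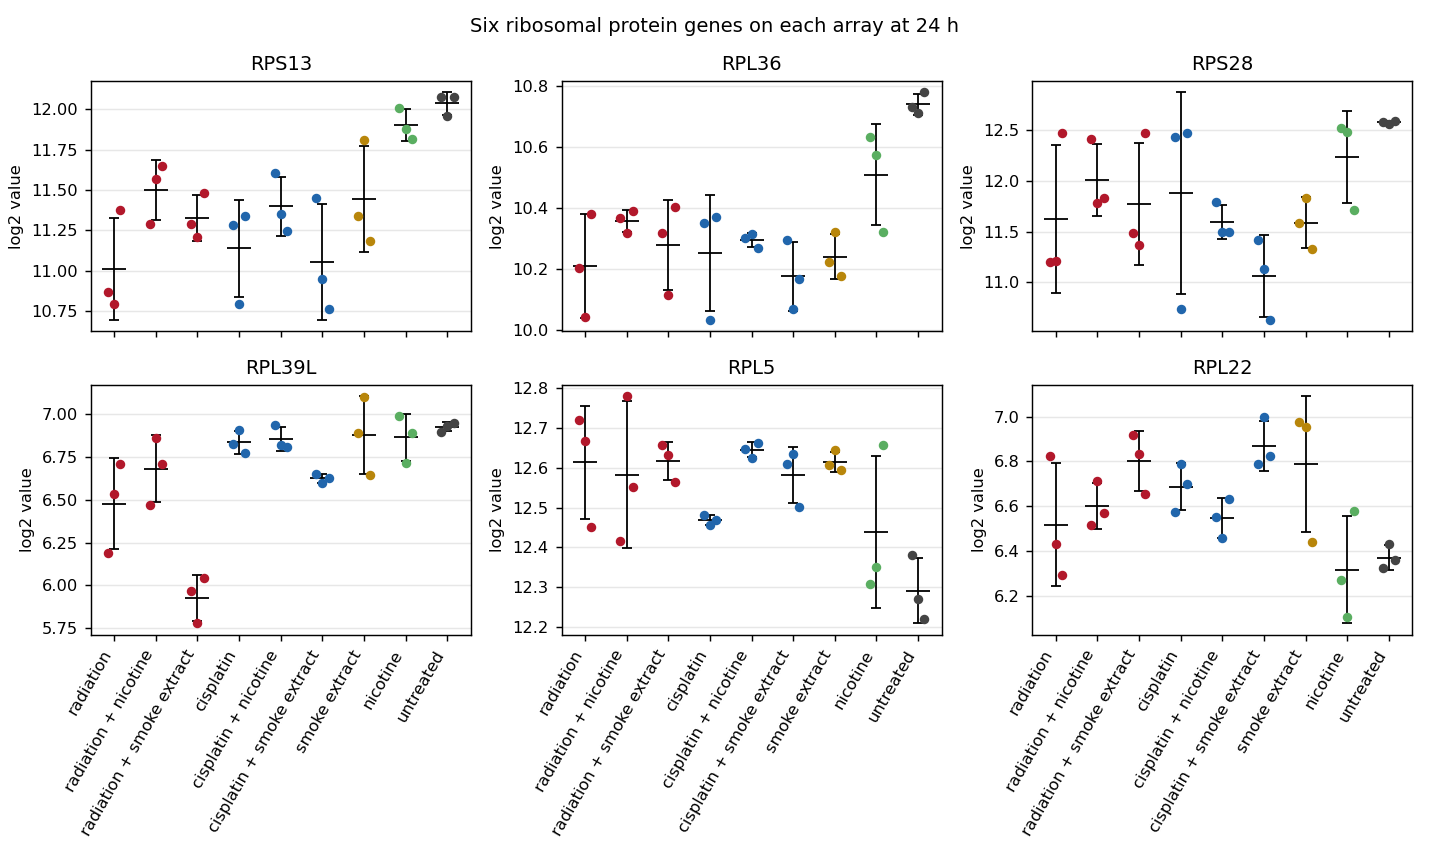
Log2 values of RPS13, RPL36, RPS28, RPL39L, RPL5 and RPL22 on each array at 24 h (points) with group means and SDs (bars, n = 3). RPS13 and RPL36 were lower than in untreated cells (12.04 and 10.74 on average) on all 21 arrays with radiation, cisplatin or smoke extract, RPL5 was higher, and RPL39L was lowest after radiation with smoke extract (5.93).

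Measured against untreated cells at 24 h, the 8 treatments had the following calls. Radiation had 34 (32 lower, 2 higher, median difference -0.25), against 21% of all genes either way and 11% lower. Radiation with nicotine had 16 (12 lower) against 19.9% and 11.7%, and radiation with smoke extract 32 (26 lower) against 26.9% and 15.4%. Cisplatin had 13, all lower, against 3.8% and 1.65%. Cisplatin with nicotine had 25 (23 lower) against 10.3% and 7.46%, and cisplatin with smoke extract 36 (33 lower, median -0.29) against 22.3% and 12.4%. Smoke extract had 25 (22 lower, median -0.20) against 16.1% and 7.4%. Nicotine had 0 (6 at an unadjusted p under 0.05) against 0.00543%, with a median of -0.05. The 8 comparisons share the same 3 untreated arrays. Like the other comparisons of single groups at 24 h, they use the spread pooled over both times, which was wider at 24 h. They were not refitted with the 24 h arrays alone, where the mean effects had fewer calls.

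**Figure D4:**
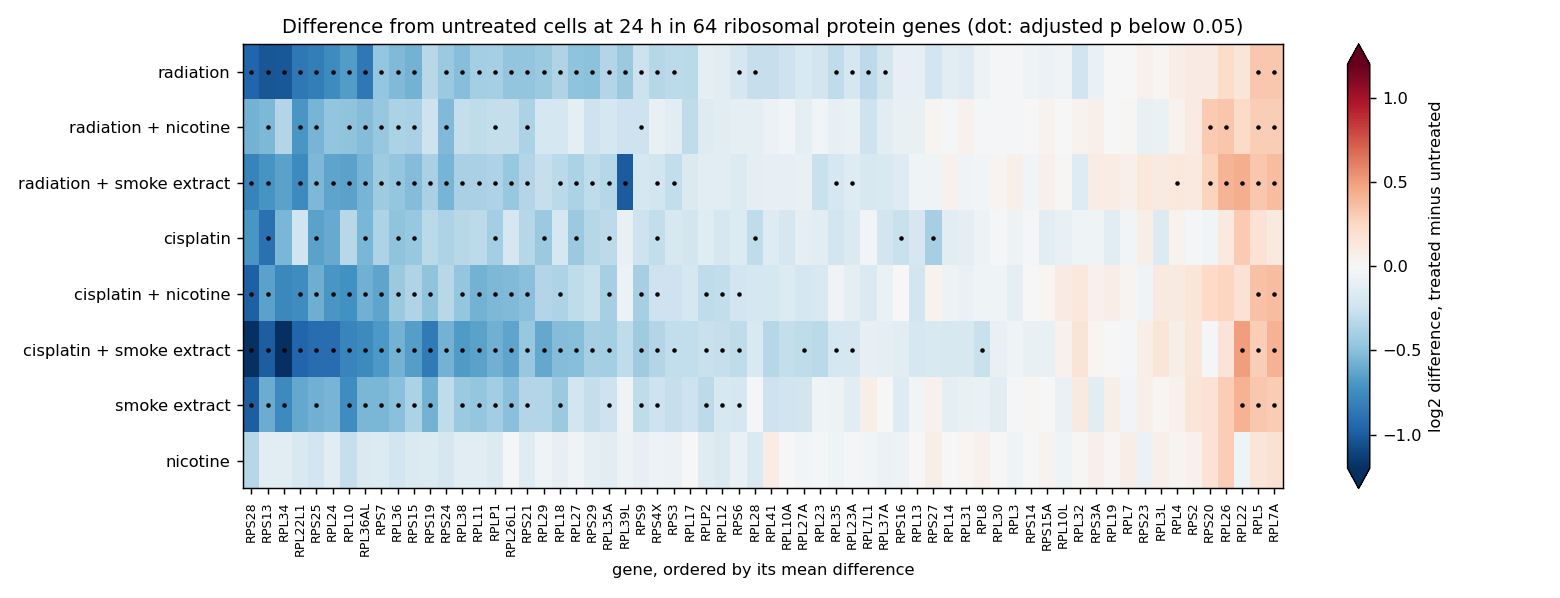
Log2 difference from untreated cells at 24 h (treated minus untreated, colour, limited at 1.2) for the 64 genes in columns and the 8 treatments in rows, with a dot where the adjusted p was below 0.05. RPS28, RPS13 and RPL34 stand at the left end with the lowest mean differences and RPL5 and RPL7A at the right end with the highest, and the nicotine row holds 0 dots.

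The largest falls were in cells given cisplatin and smoke extract. RPS28 had 11.42, 11.14 and 10.63 there, against 12.58, 12.56 and 12.59 in untreated cells, a level of 0.35 of the untreated one (log2 difference -1.52 ± 0.27 SE, adjusted p = 4.88e-05). RPL34 was at 0.425 and RPS19 at 0.554 of the untreated level (adjusted p = 0.000489 and 1.99e-05). Smoke extract added to cisplatin gave 12 calls (10 lower, 2 higher) against 28.6% of all genes either way and 14.1% lower. Of the members 18.8% were called, below the share of all genes, and 15.6% were lower, close to it. Among the calls were RPS28, RPL22L1, RPL34 and RPS19 lower and RPL7A higher. In the 10 lower genes the arrays of the 2 groups overlapped, and in RPS28 the array of cisplatin alone inside the range of the combined treatment was replicate 2 (10.74). Nicotine added to cisplatin gave 3 calls, all higher, against 17.8% of all genes either way and 8.25% higher: RPS27 (0.44), RPS20 (0.28) and RPS16 (0.26). They are 4.69% of the members, below both shares of all genes. RPS27, a small-subunit protein with a zinc finger, had 12.41, 12.29 and 12.22 after cisplatin with nicotine, against 11.97, 11.66 and 11.98 after cisplatin. Nicotine added to radiation gave 0 calls (16 at an unadjusted p under 0.05), against 0.00543% of all genes.

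Radiation and cisplatin differed directly in 10 members (7 higher and 3 lower after radiation) against 24.2% of all genes either way and 12.8% lower. The members had 15.6% either way and 4.69% lower, both below the shares of all genes. Of the members 10.9% were higher, and that share of all genes is not given here. RPL39L, RPL32 and RPL7L1 were lower after radiation, and RPS19, RPS20, RPLP1, RPLP2, RPL3, RPL12 and RPL13 were higher. Smoke extract and nicotine differed in 17 members (15 lower and 2 higher after smoke extract) against 20.6% of all genes either way and 8.34% lower.

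Between 24 h and 2 h, averaged over the 9 treatments, 55 members were called, 47 lower and 8 higher at 24 h, against 69.2% of all genes either way, 27.8% lower and 41.4% higher. The median difference was -0.19 for the members and 0.06 for all genes. In untreated cells the same contrast had 0 calls (6 at an unadjusted p under 0.05) against 1.92% of all genes, with a median of -0.01. In nicotine cells it had 2 (RPL36 and RPL7L1, both lower) against 7.24%. In the next counts the percent of all genes called is in parentheses. In cells with radiation it had 38 (34.8%), with radiation and nicotine 21 (32.8%) and with radiation and smoke extract 38 (34.9%). With cisplatin it had 16 (11.1%), with cisplatin and nicotine 36 (37.6%), with cisplatin and smoke extract 43 (29.9%) and with smoke extract 29 (26.2%). The 21 calls with radiation and nicotine are 32.8% of the members, the same share as of all genes.

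Single genes showed the same contrast. RPS28 had 10.63 to 12.59 at 24 h over the 27 arrays (median 11.78), against 12.45 to 12.61 (median 12.52) at 2 h, and in untreated cells 12.56 to 12.59 against 12.50 to 12.57. RPL36 had 10.03 to 10.78 at 24 h (median 10.32), against 10.61 to 10.90 (median 10.74) at 2 h, and 10.71 to 10.78 against 10.71 to 10.74 in untreated cells. RPL22L1 had the largest fall, -1.03 over the 9 treatments (adjusted p = 1.93e-16), with 5.52 to 6.98 at 24 h against 6.82 to 7.51 at 2 h. Its values were lower at 24 h in untreated cells too, 6.55 to 6.98 against 7.03 to 7.36 at 2 h, although that difference of -0.48 did not pass (adjusted p = 0.336). The largest rises were in RPL7A and RPL5 (0.25 each), RPL22 (0.23), RPL3L (0.21) and RPL19 (0.14). RPL5 had 0.14 with the mean of its rows, RPL3L and RPL19 had 0.11 and 0.075 with the olfactory receptor mean, a measure of background signal, as a covariate, and RPL19 had 0.22 after quantile normalization.

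**Figure D5:**
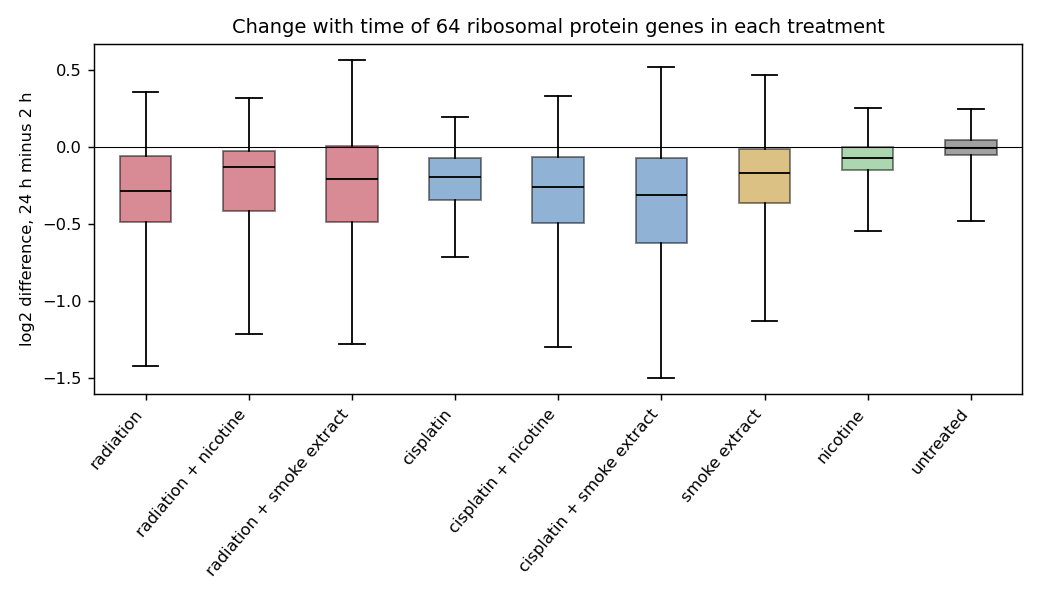
Log2 difference between 24 h and 2 h (24 h minus 2 h) of the 64 genes in each of the 9 treatments, as boxes with the median, quartiles and full range. The median was -0.31 after cisplatin with smoke extract and -0.29 after radiation, against -0.07 in nicotine cells and -0.01 in untreated cells.

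A test of the effect at 24 h minus that at 2 h was made for each agent. It called 14 members for radiation (13 lower, 1 higher) against 23.4% of all genes either way and 12.3% lower. It called 7 for cisplatin, all lower, against 1.03% and 0.717%, and 4 for smoke extract (3 lower, 1 higher) against 9.12% and 5.54%. RPS13 had -0.51 for radiation and -0.55 for cisplatin (adjusted p = 0.000992 and 0.0106), and RPL36 had -0.28, -0.29 and -0.20 for radiation, cisplatin and smoke extract (adjusted p = 0.00109, 0.0134 and 0.0378). These counts depended on single arrays. Leaving out 1 array gave 11 to 28 for radiation, with 28 without radiation replicate 3, and 3 to 16 for cisplatin, with 3 without nicotine replicate 1 and 16 without nicotine replicate 3. It gave 1 for smoke extract without radiation replicate 3 and 18 without cisplatin replicate 2.

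The members can also be split by structure and gene organisation. After cisplatin 13 of the 21 small-subunit genes and 14 of the 36 standard large-subunit genes were called lower, with medians of -0.21 and -0.13. After radiation the counts were 6 of 21 and 10 of 36. Of all genes 3.22% were called lower after cisplatin, 16.6% after radiation and 15.7% after smoke extract, and the counts of the next groups stand beside the same shares. The 17 members listed as hosts of small nucleolar RNAs included 3 called lower after radiation, 3 after cisplatin and 2 after smoke extract, with median differences of -0.003, -0.09 and -0.05. Among the other 47 the counts were 18, 25 and 15, with medians of -0.12, -0.19 and -0.08. RPL5, RPL7A and RPS2, which rose after smoke extract in the rows used, are on the host list, as is RPS13, which fell after radiation and cisplatin. For a small nucleolar RNA mean, small nucleolar and Cajal body RNAs were taken where their mean level lay above the median gene, 91 in all. This mean was 8.40 to 8.80 in the 7 groups with radiation, cisplatin or smoke extract at 24 h. It was 9.05 after nicotine, 9.08 in untreated cells and 9.10 to 9.25 in the 2 h groups. The part of these RNAs in the result was not tested.

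In 23 members several rows carried the symbol, 58 rows in all, and these rows did not always move together. All rows of a symbol had the same sign in 15 of the 23 for radiation and for cisplatin and in 14 for smoke extract. The 3 rows of RPS28 gave -0.62, -0.63 and -0.63 after cisplatin. The 2 of RPS25 gave -0.45 and -0.28, and the 2 of RPL24 -0.51 and -0.43. RPS15 had -0.31 in the row used and 0.16 in a second row with a mean value of 6.13. RPS9, a small-subunit protein, had -0.22 and 0.15, and the third row of RPL5 had -0.07 after radiation, against 0.16 in the row used. RPS2 had 0.11 after smoke extract in the row used, while its other 2 rows, both with a mean value of 12.21, had 0.001 and -0.008 (adjusted p = 0.977 and 0.849). Many human ribosomal protein genes have near-identical processed copies, so a row can measure more than its named gene, and these values are uncertain to that extent.

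The other genes of the translation apparatus were counted on lists. Of 36 measured factors of ribosome biogenesis, 24 were lower and 1 higher after radiation at 24 h, 3 lower after cisplatin, 6 higher and 4 lower after smoke extract, and 7 lower after nicotine. Of all genes 16.6% were lower and 15.9% higher after radiation, 3.22% lower after cisplatin, 15.7% lower and 11.9% higher after smoke extract, and 4.43% lower after nicotine, and the lists below have the same background. MRTO4, NOP16, NOLC1 and DKC1, nucleolar factors, fell by 0.64, 0.55, 0.50 and 0.49 after radiation. At 2 h smoke extract raised 12 of the 36 and lowered 0, against 4.22% of all genes called higher, with NOP2 at 0.33 and NOB1 at 0.32, while 0 ribosomal protein genes were called. MYC, a transcription factor that drives ribosome biogenesis, rose with smoke extract by 0.33 at 2 h and 0.30 at 24 h and fell by 0.25 after radiation at 24 h. Of 73 mitochondrial ribosomal proteins, 46 were lower and 2 higher after radiation, 14 lower after cisplatin, and 20 lower and 7 higher after smoke extract. Of 19 other mRNAs with a TOP motif, 4 were lower and 3 higher after radiation, 3 lower after cisplatin, and 2 lower and 3 higher after smoke extract. The 4 lower after radiation are close to the background. EEF1D, a subunit of elongation factor 1, fell by 0.24 after radiation and 0.27 after cisplatin. Of genes known to respond to these agents, MDM2 and CDKN1A rose by 1.08 and 0.87 with radiation, and CYP1A1 by 4.19 with smoke extract, all at 24 h.

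Olfactory receptor genes, taken as a measure of background signal, averaged 4.43 to 4.89 at 24 h (median 4.69), against 4.40 to 4.80 (median 4.57) at 2 h. With this mean as a covariate, 21, 26 and 17 members were called for radiation, cisplatin and smoke extract at 24 h, against 23, 28 and 23 without it. The shares of all genes called with the covariate are not given here. Within groups, the deviations of the member mean and of the olfactory receptor mean from their group means had a Pearson r of -0.602 (p = 0.00043) and a Spearman rho of -0.568 (p = 0.00087) over the 54 arrays, and r was -0.526 without the 2 arrays farthest from the median. These p-values are from a two-sided permutation test with 100000 permutations within groups, and r was -0.645 at 24 h and -0.712 at 2 h. The small nucleolar RNA mean gave an r of 0.471 and a rho of 0.45 (permutation p = 0.00275 and 0.00646), with 0.51 without the 2 farthest arrays, 0.569 at 24 h and 0.493 at 2 h. After Benjamini-Hochberg adjustment over these 2 relations the permutation p-values of r were 0.00086 and 0.00275 and those of rho 0.00174 and 0.00646. Members with more weight on the axis of replicate spread also had lower differences at 24 h, with a Pearson correlation of -0.69 for radiation, -0.88 for cisplatin and -0.86 for smoke extract, as a description over 64 genes that share the same arrays. The part of background signal or array quality in these differences was not tested beyond the covariate.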

How the data were processed

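RNA of NCI-H460 cells was measured on 54 one-colour whole-transcript arrays, 18 groups of 3 by sample title, with 33297 rows. The authors' deposited values are taken as log2. The base is inferred from their range, 0.89 to 13.81, and array medians of 6.43 to 6.63, and is not stated. Affymetrix Power Tools 1.15.0 is named as the authors' tool, per the submitters' processing notes. How probes were summarized, corrected for background and normalized is not given in the sources used here, and no detection calls were used. Values were used as deposited, and the number of arrays limits their precision. The labels place the cultures on multi-well plates without naming a plate per sample, so plate could not be tested. Symbols came from the platform annotation: 19460 rows had 1 symbol, 1754 several and 12083 none. The table left 0 sample columns unused.

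One limma model (limma 3.58.1 in R 4.3.3) of 18 group means was fitted to 18417 genes with 36 residual degrees of freedom and eBayes with a trend on mean level. Tests were two-sided, with Benjamini-Hochberg adjustment over all genes, and genes were called at an adjusted p under 0.05. The fit was tested on simulated data. The p-values measure the spread between the 3 samples of a group, and nothing says from how many separate passages these came. Replicate numbers did not pair the samples: deviations from group means of same-numbered arrays correlated at 0.0185 on average, against -0.0095 for other numbers.

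The members and the gene lists were chosen with earlier results of these data known. Named genes were, per comparison, up to 5 called members each way with the largest difference, the paralog pairs and proteins with known extra roles, and the brightest, dimmest and most variable members. The count of genes wholly below or above the untreated arrays, and the genes it names, were added after values were seen. Alternatives are given in the closing section.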

Additional observations from a re-analysis of the deposited data

Results flagged for a closer look

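The test of an agent's effect at 24 h minus its effect at 2 h called 14 members for radiation (21.9% of them, against 23.4% of all genes), 7 for cisplatin (10.9%, against 1.03%) and 4 for smoke extract (6.25%, against 9.12%). The shares for radiation and smoke extract are below those of all genes, and leaving out single arrays moved the count to between 11 and 28 for radiation, 3 and 16 for cisplatin and 1 and 18 for smoke extract. The test of whether the response to therapy at 24 h depended on the pretreatment called 1 of the 64 members (1.56%), RPL36, against 1.22% of all genes. With the 24 h arrays alone it called 0, and leaving out single arrays gave 0 to 12.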

How the results depend on the processing

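With only the arrays of the time compared in the fit, 15, 7, 10 and 0 members were called for radiation, cisplatin, smoke extract and nicotine at 24 h, 0 for the interaction and 1 for smoke extract at 2 h. Of the 24 named results this fit could test, 12 kept their call. Adding the replicate number as a block, which does not pair these samples, changed none of the 49 named calls and moved no count of calls by over 1.5 times. After quantile normalization the counts were 1 for smoke extract at 2 h, 4 for nicotine at 24 h and 2 for the interaction. With the olfactory receptor mean as a covariate they were 1, 5 and 3, and 13 for cisplatin at 24 h minus 2 h. Centring on bright genes gave 15 for nicotine at 24 h and 3 for the interaction. This centring also moved the median nicotine difference of all genes at 24 h from -0.002 to 0.069. The counts in this paragraph stand without the shares of all genes called under the same setting. With only genes above the median level there were 1 for smoke extract at 2 h, 6 for nicotine at 24 h and 12 for cisplatin at 24 h minus 2 h. The mean of all rows of a symbol gave 1 for cisplatin at 2 h. For smoke extract at 24 h minus 2 h, all rows of the table and eBayes without a trend gave 2 each. Leaving out the 6 arrays farthest in the olfactory receptor mean, a choice made after seeing the data, gave 2 for cisplatin at 24 h minus 2 h.

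With each agent alone against untreated cells, 13 members were called for cisplatin and 0 for nicotine at 24 h, and 23 for radiation and 0 for cisplatin at 24 h minus 2 h. The shares of all genes called at 24 h minus 2 h under this setting are not given here. Those 2 counts are therefore not read as a trait of the members. The member medians became -0.251 for radiation and -0.204 for smoke extract at 24 h, and -0.276 for radiation at 24 h minus 2 h. In untreated cells only, the time comparison had 0 calls and a median of -0.0087, and RPL7A (-0.0047), RPL5 (-0.0034), RPL22 (-0.064) and RPS28 (0.043) had the opposite sign. The cause of these differences between settings was not tested.

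Leaving out 1 array at a time gave 0 to 1 calls for smoke extract at 2 h, 20 to 36 for radiation, 17 to 34 for cisplatin, 13 to 32 for smoke extract and 1 to 10 for nicotine at 24 h, and 0 to 12 for the interaction. At 24 h minus 2 h it gave 11 to 28 for radiation, 3 to 16 for cisplatin and 1 to 18 for smoke extract. With 3 arrays a group, no plate labels and several rows with signal from near-identical gene copies, small differences in single genes are not resolved here.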
